A study of Macaca mulatta with 4 samples.

Results

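The 10 genes described here, ND1, ND2, ND3, ND4, ND5, CYTB, COX1, COX2, COX3 and ATP6, are protein-coding genes of the mitochondrial genome. They were taken by symbol from the deposited UMI count tables of rhesus macaque (Macaca mulatta) blood mononuclear cells, where they make up 10 of 15354 gene rows. A UMI, or unique molecular identifier, tags a captured RNA molecule so that its copies are counted once. Over all cells the 10 genes held 138004 of 16539739 UMIs, a share of 0.834%.

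The cells came from a study of islets made from human pluripotent stem cells and placed in macaques, and the comparison of times asks how the immune cells of the recipient changed. There were 4 libraries, 1 per group. Pre-IS blood was drawn ahead of immunosuppression, Post-IS blood after it but ahead of the transplant, and 4 wpt and 8 wpt blood 4 and 8 weeks after the transplant. The labels name neither the immunosuppressive drugs nor the animal behind each library, nor do they say whether immunosuppression went on at 4 and 8 wpt. With 1 library per group there was no replicate and no test between groups. All 95% intervals are exact and cover counting error only.

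Mammalian mitochondrial DNA encodes core subunits of the respiratory chain and of ATP synthase, while the remaining subunits come from nuclear genes and are imported. Both DNA strands are transcribed as long precursors, from which transfer RNAs are cut out to release the messenger RNAs. All the genes described here are read from the same strand. ND1 to ND5 belong to complex I, which takes electrons from NADH, and CYTB to complex III. COX1 to COX3 form the core of complex IV, which passes electrons to oxygen, and ATP6 is part of the proton channel of ATP synthase.

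The Pre-IS, Post-IS, 4 wpt and 8 wpt libraries held 1928, 603, 1882 and 2580 cells, with a median of 1563, 1168, 3551 and 1877 UMIs per cell. The Post-IS library was thus the smallest and the shallowest. Of 6968 distinct barcodes 25 occurred in 2 libraries, and none in more. Cell type names are the deposited labels, of which there were 9. Whether mitochondrial genes took part in making the labels, and whether cells had been removed for a high mitochondrial share, is not given in the sources used here, so differences between labels are descriptions. Combinations of label and library with at least 50 cells numbered 20, and ratios were taken only between these.

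The mitochondrial share was lowest in T cells and highest in MS4A7+ monocytes in each library, among labels with at least 50 cells. In T cells it was 0.488% in Pre-IS cells (0.476% to 0.4999%), 0.848% in Post-IS cells (0.801% to 0.897%), 0.766% in 4 wpt cells (0.756% to 0.775%) and 0.597% in 8 wpt cells (0.587% to 0.608%). In CD14+ monocytes it was 0.790% in Pre-IS cells (0.767% to 0.814%), 1.20% in Post-IS cells (1.17% to 1.23%), 1.03% in 4 wpt cells (1.01% to 1.04%) and 0.890% in 8 wpt cells (0.872% to 0.909%). In MS4A7+ monocytes the values were 1.49% in Pre-IS cells (1.42% to 1.57%), 2.22% in Post-IS cells (2.15% to 2.30%), 1.99% in 4 wpt cells (1.95% to 2.03%) and 1.30% in 8 wpt cells (1.24% to 1.36%). Post-IS was the highest library in all 3 of these labels. In cells of 1000 to 3000 UMIs this did not hold in MS4A7+ monocytes and T cells. There the 4 wpt share was 1.44 and 1.07 times the Post-IS share. NK cells stood close to T cells, with 0.581% in Pre-IS cells, 0.766% in 4 wpt cells and 0.696% in 8 wpt cells, and at 4 wpt the ratio of NK cells to T cells was 1.00 (0.976 to 1.03). B cells had 0.718% in Pre-IS cells, 1.07% in 4 wpt cells and 0.807% in 8 wpt cells. Naive B cells had 0.743% for Pre-IS and 0.870% at 8 wpt. Naive B cells over B cells gave a ratio of 1.03 for Pre-IS (0.969 to 1.10), an interval that holds 1, and of 1.08 at 8 wpt (1.01 to 1.15). B cells stood between T cells and CD14+ monocytes for Pre-IS and at 8 wpt, but not at 4 wpt, where they were 1.04 times the CD14+ monocytes (1.01 to 1.08). That exception rested on few cells: without cells over 5% mitochondrial UMIs, 8 of the 114 B cells and 4 of the 312 CD14+ monocytes, the 4 wpt shares were 0.904% in B cells and 0.995% in CD14+ monocytes.

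Labels with fewer cells are given as values. The deposited label Dentritic cell, dendritic cells by its name, had 0.776% in 30 Pre-IS cells, 0.996% in 4 Post-IS cells, 1.24% in 23 4 wpt cells and 1.05% in 29 8 wpt cells. Proliferating NK/T cells, dividing lymphocytes, had 1.05% in 8 Pre-IS cells, 0.518% in 2 Post-IS cells, 1.06% in 41 4 wpt cells and 0.937% in 30 8 wpt cells. Both were above the T cells of the same library, except the proliferating cells of Post-IS, whose value rests on 13 mitochondrial UMIs. The 12 cells labelled Platelet, all at 4 wpt, had 0.295%, and 7 of them had no mitochondrial UMI. Of 5 platelet marker genes only PPBP was detected in them, and PF4, GP9, ITGA2B and TUBB1 were at 0, so their label was not borne out by its markers. For Post-IS, 12 B cells had 1.77% and 9 NK cells had 0.939%.

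**Figure D1:**
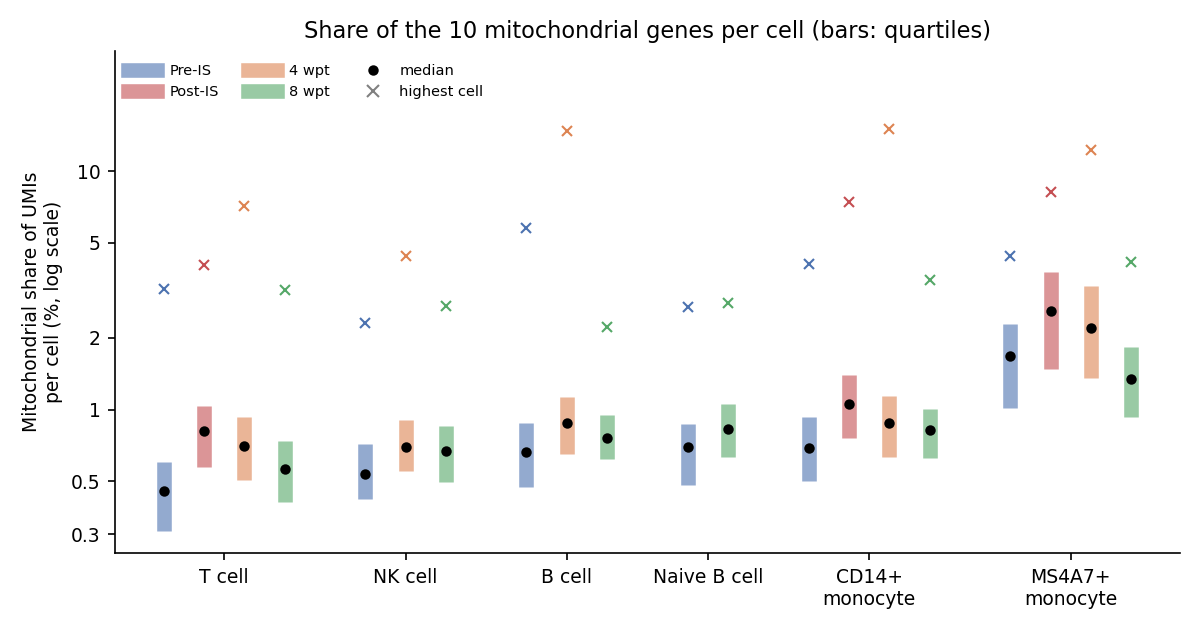
Share of UMIs from the 10 mitochondrial genes per cell (percent, log scale) for each cell label with at least 50 cells, with libraries in time order; the bar spans the quartiles, the dot is the median and the cross the highest cell. In Pre-IS, Post-IS and 4 wpt the MS4A7+ monocyte bar sits above the CD14+ monocyte bar, and the Post-IS median (2.60%) is the highest among them.

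Per cell, the median share in T cells was 0.455% in Pre-IS cells, 0.810% in Post-IS cells, 0.701% in 4 wpt cells and 0.561% in 8 wpt cells. The quartiles of Post-IS T cells, 0.574% and 1.03%, overlapped only slightly with those of Pre-IS T cells, 0.310% and 0.603%. Only 33 of 6993 cells had no mitochondrial UMI. The share is relative to all UMIs of a cell, so more mitochondrial RNA and less other RNA cannot be told apart from it. As counts, the median T cell held 9 mitochondrial UMIs for Post-IS and 7 for Pre-IS, the median MS4A7+ monocyte 22 and 19, and the median CD14+ monocyte 13 and 14. The median depth was 1257 UMIs for Post-IS and 1526 for Pre-IS in T cells, 822 and 1111 in MS4A7+ monocytes, and 1196 and 2058.5 in CD14+ monocytes. Part of the whole-library difference went with the mix of labels. Post-IS stood at 1.32% and Pre-IS at 0.651%, with 0.944% at 4 wpt and 0.738% at 8 wpt. In T cells, CD14+ and MS4A7+ monocytes alone, Post-IS stood at 1.32% and Pre-IS at 0.621%. With the mix of these 3 labels held equal they stood at 1.06% and 0.655%.

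MS4A7+ monocytes exceeded CD14+ monocytes by 1.89-fold in Pre-IS cells (1.78 to 2.002), 1.86-fold in Post-IS cells (1.77 to 1.94), 1.94-fold in 4 wpt cells (1.88 to 1.99) and 1.46-fold in 8 wpt cells (1.39 to 1.53). The excess over T cells was 3.06-fold, 2.62-fold, 2.59-fold and 2.18-fold in the same order. Marker sums are given here for the own label only, so they do not show how far the labels differ in these genes. The 6 CD14+ monocyte markers summed to between 21777.1 and 24765.1 CPM in CD14+ monocytes, and the 6 MS4A7+ monocyte markers to between 2702 and 3938 CPM in MS4A7+ monocytes. CPM stands for UMIs in 1000000 UMIs of that label and library.

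The share fell with depth in MS4A7+ monocytes. By rank over cells it rose with depth in CD14+ monocytes of Post-IS, 4 wpt and 8 wpt, and hardly moved in those of Pre-IS. In MS4A7+ monocytes the Spearman correlation between the share and the UMIs of a cell was -0.58 over the 75 Pre-IS cells, -0.65 over the 131 Post-IS cells, -0.64 over the 207 4 wpt cells and -0.52 over the 65 8 wpt cells. In CD14+ monocytes it was 0.08, 0.30, 0.38 and 0.44 in the same order. These are descriptions over cells of the same library, and the UMIs of a cell are also the denominator of its share. In T cells the correlation lay between -0.05 and 0.11.

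In MS4A7+ monocytes under 1000 UMIs the median share was 2.22% in Pre-IS cells, 3.43% in Post-IS cells, 4.01% in 4 wpt cells and 2.22% in 8 wpt cells. The median depth of these cells was 808, 569, 808.5 and 879 UMIs in the same order, so depth was not matched for Post-IS. In MS4A7+ monocytes of 2000 to 3999 UMIs the median share was 0.968%, 1.32%, 1.73% and 1.29% in the same order. The mitochondrial UMIs of a cell grew much less than its depth: at 4 wpt the median cell held 33 mitochondrial UMIs in the shallower class and 47 in the deeper one, with 808.5 and 2669 UMIs in all. CD14+ monocytes of 2000 to 3999 UMIs had a median of 0.690%, 1.30%, 0.827% and 0.817%. At this depth the MS4A7+ and CD14+ monocytes of Post-IS were thus nearly level, while the MS4A7+ monocytes stayed above in the other 3 libraries. The deeper class held only 15 MS4A7+ monocytes for Post-IS and 11 for Pre-IS, and the shallower class only 11 at 8 wpt. At 1000 to 1999 UMIs the Post-IS medians were 1.81% in 40 MS4A7+ and 1.10% in 109 CD14+ monocytes. At 4000 or more UMIs MS4A7+ monocytes stood below CD14+ monocytes. The medians there were 0.983% in 24 and 1.05% in 120 cells at 4 wpt, and 0.854% in 6 and 0.996% in 87 cells at 8 wpt. For Pre-IS this class held 1 MS4A7+ monocyte.

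**Figure D2:**
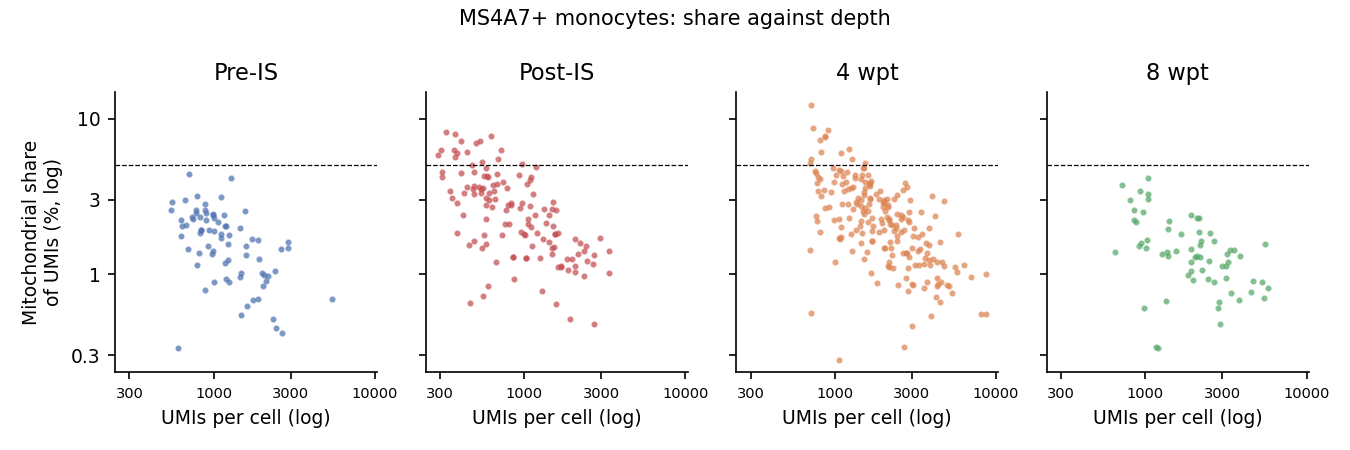
Mitochondrial share of UMIs (percent, log scale) against UMIs per cell (log scale) for each MS4A7+ monocyte with at least 1 mitochondrial UMI, by library; the dashed line marks 5%. In each panel the share is higher in shallower cells, and only Post-IS (17 cells) and 4 wpt (13 cells) have cells above the line.

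Cells with over 5% mitochondrial UMIs numbered 53, of which 1 was in the Pre-IS library, 19 in Post-IS, 33 at 4 wpt and 0 at 8 wpt. MS4A7+ monocytes gave 17 of the Post-IS cells, which is 13.0% of that label there (7.74% to 19.96%), and 13 of the 4 wpt cells, which is 6.28% (3.39% to 10.5%). Their median depth was 444 and 864 UMIs, against 822 and 1945 UMIs for all MS4A7+ monocytes of those libraries. The shallowest cell of any label held 289 UMIs in Post-IS, but 521 in Pre-IS, 697 at 4 wpt and 653 at 8 wpt. Cells of the lowest depths thus occurred only in Post-IS, and their part in these counts was not tested. B cells gave 8 of the 4 wpt cells, 7.02% of that label (3.08% to 13.4%), with a median of 1074.5 UMIs and a highest share of 14.7%. The makeup of the high cells was close to that of the other MS4A7+ monocytes of their library. COX3 took 53.4% of the mitochondrial UMIs in the 17 high Post-IS cells and 53.6% in the other 114, and 77.1% and 74.5% in the 13 and 194 cells at 4 wpt. COX1 took 14.8% and 17.5% in the high and other Post-IS cells, and 3.33% and 3.68% at 4 wpt.

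COX3 was the most counted of the 10 genes and ND3 the least in all 20 combinations. COX3 took 52.7% to 75.8% of mitochondrial UMIs. These are UMI counts and not levels per length, and no gene lengths were used, so they give the makeup of what was captured. The kit captures the 5' end of transcripts. Reads of a nuclear copy of mitochondrial DNA would be counted with their source gene, and their part in these counts was not tested. How reads over overlapping genes, such as ND4L and ND4, were assigned is not given in the sources used here, and its part in the makeup was not tested.

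The makeup differed more between libraries than between cell labels. Its distance between a pair of combinations is the sum of absolute differences in percent, divided by 2. Between labels of the same library the median distance was 2.67 points over 43 pairs, with a range of 1.14 to 7.38. Between libraries for the same label it was 9.43 points over 25 pairs, with a range of 3.46 to 25.7. Post-IS stood farthest from the others, with 14.6 to 18.1 points to Pre-IS, 21.7 to 25.7 to 4 wpt and 16.3 to 19.1 to 8 wpt. The closest libraries were 8 wpt and Pre-IS, with 3.46 to 4.79 points, which is within the range seen between labels of the same library. Next came 4 wpt and 8 wpt, with 5.72 to 7.40 points, which lies in the upper part of that range and ends just past it. Pairs share libraries and labels, so they are not independent.

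In T cells COX1 took 9.68% of mitochondrial UMIs in Pre-IS cells, 14.2% in Post-IS cells, 4.53% in 4 wpt cells and 7.42% in 8 wpt cells. COX2 took 4.52%, 11.0%, 1.79% and 3.19% in the same order. COX3 took 72.3%, 57.8%, 75.8% and 73.4%. COX1 and COX2 were thus highest for Post-IS and lowest at 4 wpt, and COX3 the reverse. ND2 took 4.05%, 4.43%, 7.62% and 4.60%, so that 4 wpt stood apart. The monocytes had the same order for COX1 and COX2: in MS4A7+ monocytes COX1 took 9.72%, 17.0%, 3.65% and 8.45% and COX2 took 4.02%, 11.4%, 1.80% and 3.17%.

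**Figure D3:**
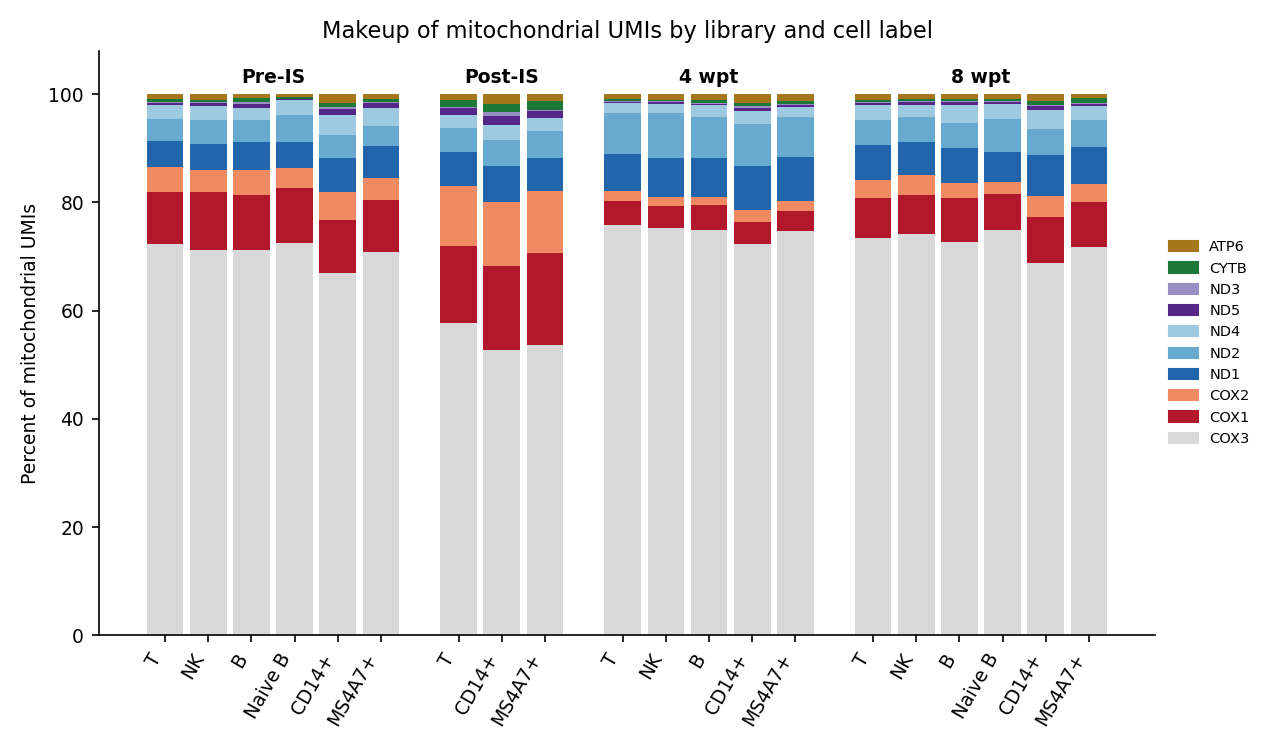
Percent of mitochondrial UMIs held by each of the 10 genes, as stacked bars for the 20 combinations of label and library with at least 50 cells, grouped by library in time order. The Post-IS bars have the largest COX1 and COX2 segments, and bars of the same library resemble each other across labels.

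Post-IS was compared with Pre-IS in the 3 labels with enough cells. The ratio of the summed share was 1.74 in T cells (1.63 to 1.85), 1.52 in CD14+ monocytes (1.46 to 1.58) and 1.49 in MS4A7+ monocytes (1.40 to 1.59). Over 10 processing alternatives (9 in T cells) it stayed between 1.67 and 1.80, between 1.42 and 1.60, and between 1.27 and 1.67 in the same order of labels. All 10 genes had a ratio above 1 in each label. A gene counted as measured with at least 20 UMIs over both libraries and as past the fold at 1.5-fold or more. Of measured mitochondrial genes, 8 of 9 were higher by this fold in T cells, beside 14.4% of all measured genes. It was 8 of 10 in CD14+ monocytes, beside 16.6%, and 7 of 9 in MS4A7+ monocytes, beside 18.4%. None was lower by that fold in any of them, beside 25.4%, 13.0% and 12.9% of all measured genes. ND3 was not measured in T cells, with 3 UMIs for Post-IS and 7 for Pre-IS, or in MS4A7+ monocytes, with 7 and 2.

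Among complex I genes, ND1, a membrane-arm subunit next to the quinone site, had 535.7 CPM in Post-IS T cells and 237.0 CPM in Pre-IS T cells, a ratio of 2.26 (1.74 to 2.91). Its ratio was 1.55 in CD14+ monocytes and 1.57 in MS4A7+ monocytes. ND2, a further membrane-arm subunit, had ratios of 1.90, 1.70 and 1.94 in T cells, CD14+ and MS4A7+ monocytes. ND4, which helps to pump protons, changed least among the complex I genes, with 1.69 in T cells (1.10 to 2.50), 1.20 in CD14+ monocytes (0.956 to 1.504) and 1.08 in MS4A7+ monocytes (0.743 to 1.59), the last 2 intervals holding 1. ND5, at the far end of the membrane arm, had 104.4 CPM in Post-IS T cells and 25.2 CPM in Pre-IS T cells, a ratio of 4.14 (2.10 to 7.81). ND5 rested on 15 and 34 UMIs there, and its ratio was 2.62 in CD14+ monocytes (1.80 to 3.87) and 2.13 in MS4A7+ monocytes (1.13 to 4.22). ND3, the smallest in counts, reached 2.29 in CD14+ monocytes (1.21 to 4.50).

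CYTB, the mitochondrially encoded subunit of complex III, had 111.3 CPM in Post-IS T cells and 22.2 CPM in Pre-IS T cells, a ratio of 5.01 (2.55 to 9.49) from 16 and 30 UMIs. In monocytes its ratio was 3.04 (2.004 to 4.70) for CD14+ and 3.79 (1.84 to 8.79) for MS4A7+. CYTB and COX2 thus had the largest ratios among the measured mitochondrial genes in each of the 3 labels, and ND5 came close to COX2 in T cells.

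In complex IV, COX2, which carries the copper site that receives electrons from cytochrome c, had 932.3 CPM in Post-IS T cells and 220.7 CPM in Pre-IS T cells, a ratio of 4.22 (3.42 to 5.20). In CD14+ monocytes it had 1422 and 405.0 CPM, a ratio of 3.51 (3.01 to 4.11), and in MS4A7+ monocytes 2546 and 599.7 CPM, a ratio of 4.25 (3.22 to 5.68). The COX2 intervals of Post-IS and Pre-IS did not overlap in any of the 3 labels. COX1, the catalytic subunit, had 1204 and 472.6 CPM in T cells, 1866 and 771.7 CPM in CD14+ monocytes, and 3786 and 1449 CPM in MS4A7+ monocytes, again with Post-IS ahead of Pre-IS. Its ratios were 2.55 (2.14 to 3.02), 2.42 (2.15 to 2.72) and 2.61 (2.17 to 3.16). COX3, the most counted gene, differed far less, with ratios of 1.39 (1.28 to 1.504), 1.19 (1.13 to 1.26) and 1.13 (1.04 to 1.22). In MS4A7+ monocytes the direction of COX3 did not hold: its ratio was 0.995 in cells thinned to 1000 UMIs, 0.947 in cells of 1000 to 3000 UMIs and 0.997 without cells over 5% mitochondrial UMIs. The COX1 ratio stayed between 2.13 and 2.92 and the COX2 ratio between 3.27 and 4.60 over all alternatives and the 3 labels.

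ATP6 had ratios of 1.85 in T cells (0.936 to 3.39), 1.67 in CD14+ monocytes (1.22 to 2.28) and 2.34 in MS4A7+ monocytes (1.23 to 4.76). The T cell value rested on 13 and 66 UMIs, its interval held 1, and it ranged from 0.886 to 2.34 over the alternatives. ATP6 shares a transcript with ATP8, which was not analysed here.

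Other values moved with this pair of libraries. In CD14+ monocytes the 5 platelet markers were all detected for Post-IS and summed to 261 CPM, against 23.7 CPM from 2 of 5 for Pre-IS, with PF4, GP9 and ITGA2B at 0. In MS4A7+ monocytes they summed to 131 CPM for Post-IS, with ITGA2B at 0, and all 5 were at 0 for Pre-IS. Ribosomal protein genes took 15.5% of UMIs in Post-IS CD14+ monocytes and 18.4% in Pre-IS ones, and 33.7% and 31.9% in T cells. In T cells the 5 platelet markers were all at 0 for Post-IS and summed to 3.70 CPM from 1 of 5 for Pre-IS. The part of these values in the mitochondrial ratios was not tested.

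**Figure D4:**
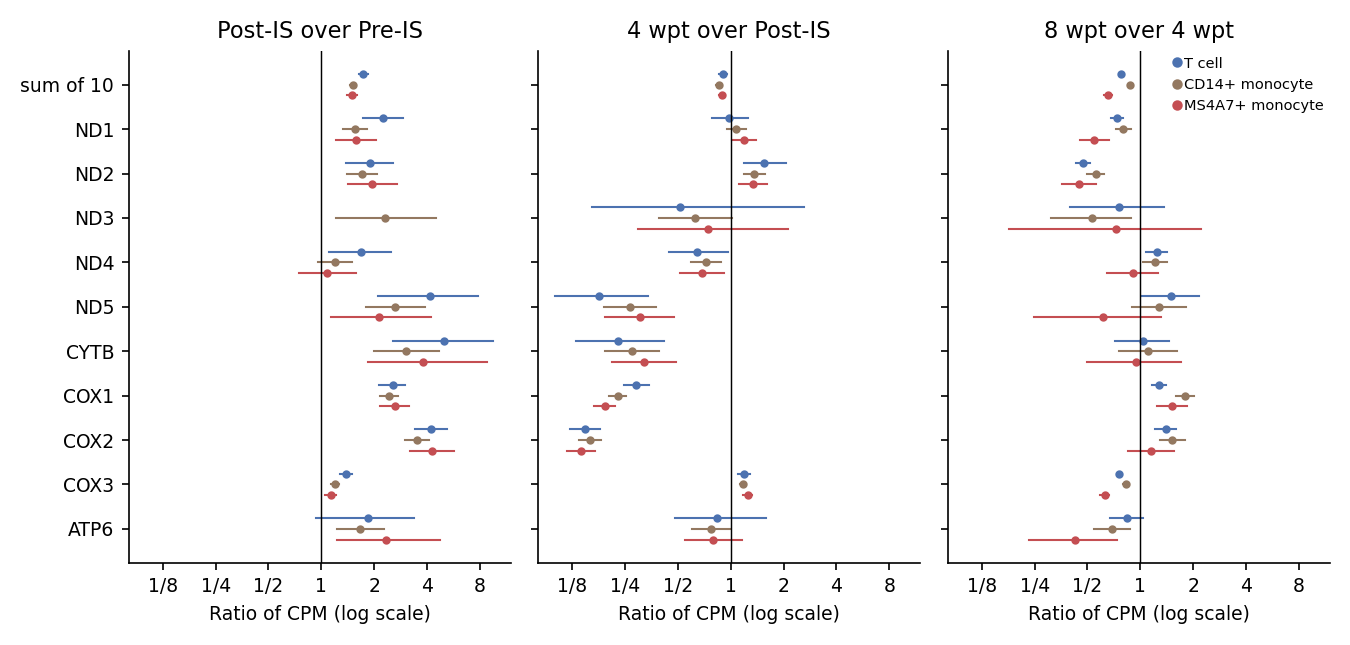
Ratio of CPM (log scale) for the summed 10 genes and each gene, for Post-IS over Pre-IS, 4 wpt over Post-IS and 8 wpt over 4 wpt, in T cells, CD14+ and MS4A7+ monocytes; lines are exact 95% counting intervals, and genes under 20 UMIs over both libraries are left out. COX1, COX2, CYTB and ND5 stand right of 1 in the first panel and left of 1 in the second, while COX3 and ND2 stand right of 1 in both, except that the COX3 direction flips with depth limits in CD14+ and MS4A7+ monocytes.

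At 4 wpt compared with Post-IS the summed share was slightly lower, but the genes moved in opposite directions. The ratio of the sum was 0.903 in T cells (0.852 to 0.957), 0.856 in CD14+ monocytes (0.828 to 0.884) and 0.893 in MS4A7+ monocytes (0.857 to 0.930). Only the CD14+ direction held under all alternatives: in cells of 1000 to 3000 UMIs the ratio was 1.07 in T cells and 1.44 in MS4A7+ monocytes, and in MS4A7+ monocytes thinned to 1000 UMIs it was 1.21. Of the 10 genes, all measured here, 6 were lower past the fold in T cells, beside 20.6% of all measured genes, 5 in CD14+ monocytes, beside 15.4%, and 4 in MS4A7+ monocytes, beside 15.0%. Higher past the fold was 1 gene in T cells, ND2, beside 23.6%, and 0 in both monocyte labels, beside 14.1% and 19.2%. The Post-IS library enters both this comparison and the one with Pre-IS, so opposite directions in them share its counts.

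COX2 stood at 136.9 CPM in 4 wpt T cells, against 932.3 CPM in Post-IS T cells. Its ratio was 0.147 in T cells (0.121 to 0.180), 0.157 in CD14+ monocytes (0.136 to 0.182) and 0.140 in MS4A7+ monocytes (0.116 to 0.169). COX1 had ratios of 0.288, 0.227 and 0.191 in the same order. CYTB had 0.227, 0.275 and 0.320, and ND5 had 0.178, 0.267 and 0.303. These 4 genes, of complexes I, III and IV, were thus lower at 4 wpt in all 3 labels. They were also below Pre-IS for COX1 and COX2: COX1 stood at 347.2 CPM at 4 wpt and 472.6 CPM for Pre-IS in T cells. ND4 had ratios of 0.644, 0.724 and 0.681, with 1.09 in MS4A7+ monocytes of 1000 to 3000 UMIs. ND3 had 0.514 (0.162 to 2.61), 0.623 (0.388 to 1.02) and 0.744 (0.296 to 2.11), and ATP6 had 0.833, 0.767 and 0.792, with values up to 1.89 in T cells and 1.35 in MS4A7+ monocytes over the alternatives.

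COX3 and ND2 went the other way. COX3 had ratios of 1.18 in T cells (1.10 to 1.28), 1.17 in CD14+ monocytes (1.13 to 1.23) and 1.25 in MS4A7+ monocytes (1.18 to 1.32), but 0.889 in CD14+ monocytes of 1000 to 3000 UMIs. ND2 stood at 583.7 CPM in 4 wpt T cells and 375.7 CPM in Post-IS T cells, a ratio of 1.55 (1.19 to 2.08), and had 1.36 (1.18 to 1.57) and 1.34 (1.12 to 1.61) in the CD14+ and MS4A7+ monocytes. ND1 had 0.979 (0.779 to 1.25), 1.07 (0.948 to 1.21) and 1.19 (1.01 to 1.40), and only the last interval did not hold 1. Over the alternatives its ratio ranged from 0.927 to 1.24 in T cells, 0.973 to 1.16 in CD14+ and 1.16 to 1.76 in MS4A7+ monocytes.

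At 8 wpt compared with 4 wpt the summed share was lower in all 5 labels with enough cells. The ratio was 0.780 in T cells (0.764 to 0.797), 0.908 in NK cells (0.880 to 0.936), 0.754 in B cells (0.721 to 0.788), 0.869 in CD14+ monocytes (0.845 to 0.892) and 0.655 in MS4A7+ monocytes (0.623 to 0.688). Without cells over 5% mitochondrial UMIs it was 0.895 in CD14+ and 0.700 in MS4A7+ monocytes. B cells ranged from 0.415 to 0.892 over the alternatives, the widest range among the 5 labels. ND2 was lower past the fold in each label, with ratios of 0.471 in T cells (0.429 to 0.516), 0.487 in NK cells (0.429 to 0.554), 0.459 in B cells (0.378 to 0.554), 0.557 in CD14+ monocytes (0.497 to 0.624) and 0.448 in MS4A7+ monocytes (0.358 to 0.556). COX1 was higher in each label, with 1.28 in T cells (1.17 to 1.39), 1.61 in NK cells (1.41 to 1.85), 1.32 in B cells (1.10 to 1.58), 1.80 in CD14+ monocytes (1.60 to 2.01) and 1.52 in MS4A7+ monocytes (1.25 to 1.84). COX3 had ratios from 0.628 in MS4A7+ monocytes to 0.894 in NK cells, and COX2 from 1.16 in MS4A7+ monocytes to 2.01 in NK cells.

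Of the 10 genes, 0 were higher and 1 lower past the fold in T cells (beside 6.84% and 8.53% of all measured genes), and 2 higher and 2 lower in NK cells (beside 8.96% and 9.08%). In B cells 1 was higher and 3 lower of 9 measured (beside 10.4% and 14.4%), and in CD14+ monocytes 2 were higher and 2 lower (beside 10.4% and 9.27%). In MS4A7+ monocytes 1 was higher and 5 lower (beside 11.3% and 27.7%). The 5 were ND1, ND2, ND5, COX3 and ATP6, of which ND5 rested on 8 and 43 UMIs. ND4 had a ratio of 1.24 in T cells (1.08 to 1.43), but 0.929 in T cells of 1000 to 3000 UMIs.

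At 8 wpt compared with Pre-IS the summed share was higher in T cells, at 1.22 (1.19 to 1.26), and in NK cells, at 1.20 (1.15 to 1.25). It was also higher in B cells, at 1.12 (1.07 to 1.18), in naive B cells, at 1.17 (1.085 to 1.26), and in CD14+ monocytes, at 1.13 (1.09 to 1.17). In MS4A7+ monocytes the ratio was 0.872 (0.814 to 0.933), but 1.07 in cells of 1000 to 3000 UMIs and 1.05 with both monocyte labels pooled. The median depth of the MS4A7+ monocytes was 2023 UMIs at 8 wpt and 1111 UMIs for Pre-IS. ND1 was the member with the highest ratio among measured genes in T cells, at 1.63 (1.43 to 1.86), and in NK cells, at 1.53 (1.26 to 1.89). COX1 was near or under 1 in all 6 labels, from 0.758 in MS4A7+ monocytes to 0.984 in CD14+ monocytes, the last with 1.04 in cells thinned to 1000 UMIs. Calls past the fold were few. In T cells 2 genes were higher and 0 lower (beside 9.08% and 5.52%), and in NK cells 1 and 0 of 9 (beside 15.4% and 6.89%). In B cells it was 1 and 1 of 9 (beside 11.3% and 11.8%), in naive B cells 1 and 0 of 7 (beside 12.1% and 11.0%), in CD14+ monocytes 0 and 0 (beside 11.8% and 9.45%) and in MS4A7+ monocytes 0 and 1 of 9 (beside 13.0% and 16.8%).

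The ratio of COX1 to ND2 within the same cells set the libraries apart with no reference to the total. Over all labels there were 2.42 COX1 UMIs per ND2 UMI in Pre-IS cells (2.24 to 2.61), 3.38 in Post-IS cells (3.06 to 3.74), 0.583 in 4 wpt cells (0.557 to 0.611) and 1.69 in 8 wpt cells (1.60 to 1.79). No 2 of these intervals overlapped. Within a library the labels stood close to each other: the 5 labels at 4 wpt lay between 0.489 in NK cells and 0.604 in B cells, and the 3 labels of Post-IS between 3.204 in T cells and 3.48 in MS4A7+ monocytes. Naive B cells at 8 wpt, with 1.08 (0.813 to 1.44), were lower than the other 5 labels there, which were between 1.61 and 1.74. Their interval overlapped those of NK cells (1.42 to 1.85), B cells (1.42 to 2.13) and MS4A7+ monocytes (1.30 to 2.19). It did not overlap those of T cells (1.46 to 1.79) and CD14+ monocytes (1.55 to 1.95). In T cells, CD14+ and MS4A7+ monocytes the order of libraries, with 4 wpt lowest, then 8 wpt, Pre-IS and Post-IS, was the same. Within these labels only the 4 wpt interval lay apart from all others each time. The Pre-IS interval overlapped that of Post-IS in T cells and MS4A7+ monocytes, and that of 8 wpt in both monocyte labels. The pair of genes was chosen after the values were seen.

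**Figure D5:**
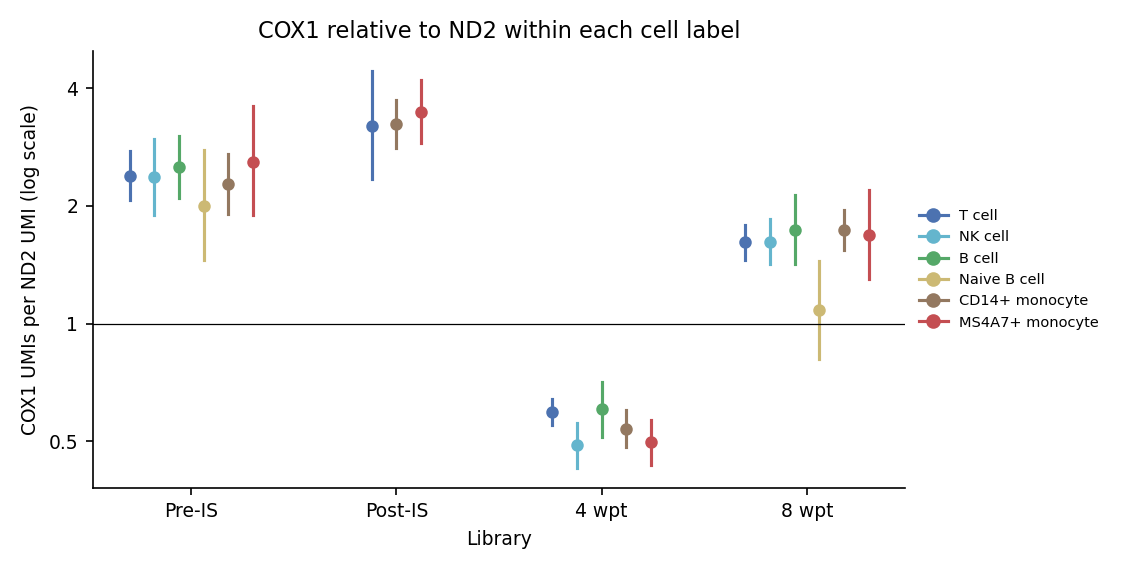
COX1 UMIs per ND2 UMI (log scale) in each label with at least 50 cells, with libraries in time order; lines are exact 95% counting intervals and the black line marks 1. The 4 wpt points lie below 1 in all 5 labels (0.489 to 0.604), and the Post-IS points lie between 3.204 and 3.48.

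The nuclear-encoded subunits of complexes I to V were compared in the same way. Complex II has no mitochondrially encoded subunit. The list held 69 genes of the table, of which 31 belong to complex I, 4 to complex II, 6 to complex III, 12 to complex IV and 16 to ATP synthase. For Post-IS over Pre-IS in T cells, 0 of 68 measured subunits were higher past the fold and 10 lower, beside 14.4% and 25.4% of all measured genes. Their median log2 ratio was -0.08, beside -0.001 over all measured genes and 1.18 over the 9 measured mitochondrial genes. In CD14+ monocytes 0 of 68 were higher and 1 lower (beside 16.6% and 13.0%), with a median of -0.01 beside 0.04 over all measured genes and 0.97 over the mitochondrial genes. In MS4A7+ monocytes 2 of 55 were higher and 11 lower (beside 18.4% and 12.9%), with a median of -0.18 beside 0.02 and 1.05. No subunit was at 0 UMIs in either library of a pair; over all genes in T cells 223 were, and with these at a floor of 3 counts in the library at 0 the median of all genes was -0.09.

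For 4 wpt over Post-IS the subunits numbered 8 higher and 2 lower of 68 in T cells (beside 23.6% and 20.6% of all measured genes), 3 and 2 of 68 in CD14+ monocytes (beside 14.1% and 15.4%) and 7 and 8 of 67 in MS4A7+ monocytes (beside 19.2% and 15.0%). Their medians were 0.03, -0.001 and -0.06, beside -0.91, -0.58 and -0.52 over the mitochondrial genes. For 8 wpt over 4 wpt in MS4A7+ monocytes 22 of 68 subunits were higher and 3 lower (beside 11.3% and 27.7%), with a median of 0.40 beside -0.11 over all measured genes and -0.49 over the mitochondrial genes. Cytosolic ribosomal protein genes moved there too, with 30 of 75 higher and 1 lower and a median of 0.50. In that label median-of-ratios scaling raised all log2 ratios by 0.14, in the same direction as the median of the subunits. In T cells and CD14+ monocytes the same comparison gave 2 higher and 1 lower of 68 (beside 6.84% and 8.53%), and 1 and 1 of 68 (beside 10.4% and 9.27%). For 8 wpt over Pre-IS the subunits numbered 1 higher and 0 lower of 68 in T cells (beside 9.08% and 5.52%), 2 and 1 of 68 in CD14+ monocytes (beside 11.8% and 9.45%) and 9 and 2 of 59 in MS4A7+ monocytes (beside 13.0% and 16.8%).

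The other mitochondrial lists, for Post-IS over Pre-IS in T cells, were mixed. Respiratory chain assembly factors had 2 higher and 9 lower of 28, genes of mtDNA maintenance and transcription 2 and 3 of 14, and genes of mitochondrial RNA processing and stability 2 and 6 of 19. Mitochondrial ribosome genes had 11 and 13 of 67, biogenesis regulators 1 and 1 of 8, import and chaperone genes 2 and 5 of 24, and genes of mitophagy and quality control 0 and 5 of 11. These counts stand beside the 14.4% of all measured genes that were higher and the 25.4% that were lower in T cells for that pair. Cytosolic ribosomal protein genes had 2 and 1 of 75. In CD14+ monocytes the same lists, in this order, had 0 and 4 of 19, 1 and 2 of 11, 2 and 2 of 11, 2 and 10 of 57, 2 and 2 of 7, 1 and 2 of 16, 1 and 0 of 9, and 1 and 3 of 75, beside 16.6% of all measured genes higher and 13.0% lower.

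Single nuclear genes were named where their interval lay beyond 1.5-fold. For Post-IS over Pre-IS this held in T cells for NDUFAF3, an assembly factor of complex I, with 13.9 CPM for Post-IS and 79.3 CPM for Pre-IS, from 2 and 107 UMIs, a ratio of 0.176 (0.0210 to 0.650). UQCRB, a subunit of complex III, had 107.8 CPM at 4 wpt and 6.96 CPM for Post-IS in T cells, where the Post-IS value is 1 UMI, a ratio of 15.5 (2.76 to 614). In CD14+ monocytes UQCRB also stood higher at 4 wpt than for Post-IS, at 3.48-fold (2.07 to 6.25). NDUFB1, an accessory subunit of complex I, had a ratio of 0.469 at 4 wpt over Post-IS in CD14+ monocytes (0.414 to 0.532). NDUFB1 was then higher at 8 wpt than at 4 wpt, at 1.67 in CD14+ monocytes (1.501 to 1.86) and 1.72 in T cells (1.58 to 1.88).

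PET100, which takes part in complex IV assembly, went the same way as NDUFB1, with 0.469 at 4 wpt over Post-IS in CD14+ monocytes (0.385 to 0.572) and 1.81 at 8 wpt over 4 wpt in T cells (1.61 to 2.05). ATP5ME, a subunit of ATP synthase, had 0.560 at 4 wpt over Post-IS in CD14+ monocytes (0.487 to 0.644). TACO1, an activator of COX1 translation, had 13.4 CPM at 8 wpt and 37.0 CPM for Pre-IS in T cells, a ratio of 0.363 (0.223 to 0.581). MFN2, which fuses outer mitochondrial membranes, had 0.261 at 8 wpt over 4 wpt in CD14+ monocytes, from 6 and 26 UMIs. In MS4A7+ monocytes SDHD, a membrane anchor of complex II, had 34 UMIs at 4 wpt and 1 for Post-IS, a ratio of 9.83 (1.65 to 399.7). COX7B, a nuclear subunit of complex IV, had 460.0 CPM at 8 wpt and 169.9 CPM for Pre-IS there, a ratio of 2.71 (1.57 to 4.92).

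Over the 20 combinations the level of most of the 10 genes ran with that of the rest, least so for COX1 and COX2. The Spearman correlation of a gene with the sum of the other 9 was 0.94 for ND1, 0.88 for ATP6, 0.87 for ND4, 0.84 for ND2, 0.82 for ND3, 0.79 for COX3, 0.79 for CYTB and 0.62 for ND5. It was 0.41 for COX1 and 0.48 for COX2. COX3 held most of the mitochondrial UMIs and so weighed most in these sums. With COX3 alone the correlation was 0.30 for COX2, 0.32 for COX1, 0.39 for ND5 and 0.58 for CYTB. For the remaining genes it lay between 0.65 (ND3) and 0.90 (ND2). These combinations share libraries, and the correlations are descriptions. From the lowest combination to the highest, the sum spanned 4.56-fold, from Pre-IS T cells to Post-IS MS4A7+ monocytes. COX2 spanned 20.6-fold, from 123.9 CPM in 4 wpt NK cells to 2546 CPM in Post-IS MS4A7+ monocytes, and COX3 spanned 4.21-fold, from 3527 CPM in Pre-IS T cells to 14834.5 CPM in 4 wpt MS4A7+ monocytes.

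The other genes whose level was most like the mitochondrial sum were found over the same 20 combinations, among 1875 genes with at least 5 UMIs in each. They were STX12, a membrane fusion protein of endosomes, with a Spearman correlation of 0.92, SERP1, a protein of the endoplasmic reticulum, with 0.89, C1GALT1, a glycosyltransferase, with 0.88, and 2 genes without a symbol, ENSMMUG00000060590 with 0.91 and ENSMMUG00000062894 with 0.89.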

How the data were processed

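Blood mononuclear cells of rhesus macaques were sequenced with a 10x Genomics 5' kit, per the labels' protocols. The authors deposited raw UMI counts per gene and cell and a cell type label per barcode. Cell Ranger 3.1.0, build Mmul_10, was followed by Seurat 3.2.3, per the submitters' processing notes. How cells and genes were filtered, how reads over overlapping genes were assigned and whether doublets were removed is not given in the sources used here, and no doublet caller was run. The files carry no coordinates, and none are given. Depth came to 3356133 UMIs in Pre-IS cells, 791030 in Post-IS cells, 6910432 in 4 wpt cells and 5482144 in 8 wpt cells.

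UMIs were summed per label and library and given as percent or CPM of that total, with exact Clopper-Pearson 95% intervals. Ratios have exact conditional binomial intervals, were taken between labels of at least 50 cells, and count as past the fold at 1.5. A measured gene had at least 20 UMIs over both libraries, and list medians used an offset of 0.5 UMIs. All 10 mitochondrial genes are named. From each nuclear list up to 2 genes higher and 2 lower per pair and large label are named, whose interval lies beyond 1.5-fold. The genes most like the mitochondrial sum are the 5 with the highest Spearman correlation of log2(CPM + 10). Genes, lists and comparisons were chosen with earlier results of these data known. Alternatives were TMM scaling (edgeR 4.0.16), median-of-ratios scaling, a total without mitochondrial and ribosomal protein genes, equal weight per cell and thinning to 1000 UMIs. Others kept cells of 1000 to 3000 UMIs, or left out cells over 5% mitochondrial UMIs or the top 5% of cells by UMIs. A further alternative left out cells with more marker UMIs of another lineage than of their own. In it T, NK and proliferating NK/T cells counted as the same lineage, as did both B cell labels and both monocyte labels. Pooling labels of a lineage was done for monocytes and for B cells. For the lists a minimum of 50 UMIs or none and an offset of 2 were also used. The COX1 to ND2 ratio and its alternatives were added after the data were seen. The interval code was tested on simulated data. Python 3.11.15 with numpy 2.4.6, pandas 2.3.3, scipy 1.17.1 and matplotlib 3.10.9, and R 4.3.3, were used.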

Additional observations from a re-analysis of the deposited data

Results flagged for a closer look

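For 8 wpt over Pre-IS the summed mitochondrial share lay on opposite sides of 1 in different labels. The ratio was 1.22 in T cells, 1.20 in NK cells, 1.12 in B cells, 1.17 in naive B cells and 1.13 in CD14+ monocytes, but 0.872 in MS4A7+ monocytes. The difference between labels was not tested, and the MS4A7+ value passed 1 under 2 of its alternatives.

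ND4L is a further mitochondrial gene of the tables, outside the 10. Its Post-IS over Pre-IS ratio was 7.83 in T cells (30 and 36 UMIs), 24.9 in CD14+ monocytes (204 and 10 UMIs) and 10.6 in MS4A7+ monocytes (88 and 6 UMIs). ND4L lies beside ND4 on the same transcript in mammals, and ND4 had ratios of 1.69, 1.20 and 1.08 there. How reads over the overlap of these genes were assigned is not given in the sources used here, and its part in the values was not tested. Over all labels there were 0.147 ND4L UMIs per ND4 UMI in Pre-IS cells, 1.23 in Post-IS cells, 0.195 in 4 wpt cells and 0.157 in 8 wpt cells.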

How the results depend on the processing

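No paired analysis was possible because each group is 1 library, and no replicate could be left out for the same reason. Of 164 alternative ratios of the summed share 5 changed direction, and of 1111 alternative ratios of single genes 11 did, counting ratios whose reported interval did not hold 1; the cause was not tested. The alternative per kilobase was not run, as no gene lengths were used.

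A total without mitochondrial and ribosomal protein genes is smaller by construction, and it moved all 20 shares by label and library. Limits on depth moved 11 of them in cells of 1000 to 3000 UMIs and 10 with thinning. In cells of 1000 to 3000 UMIs the summed ratio in CD14+ monocytes was 1.60 for Post-IS over Pre-IS, 0.685 for 4 wpt over Post-IS, 0.920 for 8 wpt over 4 wpt and 1.01 for 8 wpt over Pre-IS. In MS4A7+ monocytes these 4 pairs gave 1.27, 1.44, 0.586 and 1.07, and in T cells the 4 wpt over Post-IS ratio was 1.07 and the 8 wpt over 4 wpt ratio 0.665. This setting left out 378 Pre-IS cells, 271 Post-IS cells, 1300 of the 1882 4 wpt cells and 461 8 wpt cells. Single genes that changed direction in it were ND4 in MS4A7+ monocytes for 4 wpt over Post-IS (1.09) and in T cells for 8 wpt over 4 wpt (0.929), COX3 in CD14+ monocytes for 4 wpt over Post-IS (0.889), and in MS4A7+ monocytes COX3 for Post-IS over Pre-IS (0.947) and for 8 wpt over Pre-IS COX2 (1.12) and COX3 (1.06).

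With cells thinned to 1000 UMIs, which left out 251 Pre-IS cells, 252 of the 603 Post-IS cells, 115 4 wpt cells and 118 8 wpt cells, CD14+ monocytes had 0.769 for 4 wpt over Post-IS, 0.896 for 8 wpt over 4 wpt and 1.08 for 8 wpt over Pre-IS. MS4A7+ monocytes had 1.30 for Post-IS over Pre-IS, 1.21 for 4 wpt over Post-IS and 0.986 for 8 wpt over Pre-IS, and T cells 0.977 for 4 wpt over Post-IS and 0.755 for 8 wpt over 4 wpt. ND2 in CD14+ monocytes (0.974) and COX2 in MS4A7+ monocytes (1.10) changed direction for 8 wpt over Pre-IS, and COX3 in MS4A7+ monocytes for Post-IS over Pre-IS (0.995). Nuclear subunits past the fold, for Post-IS over Pre-IS, 4 wpt over Post-IS, 8 wpt over 4 wpt and 8 wpt over Pre-IS, then numbered 17, 19, 5 and 2 in T cells, against 10, 10, 3 and 1 as reported. In CD14+ monocytes they numbered 5, 10, 6 and 9, against 1, 5, 2 and 3, and in MS4A7+ monocytes 7, 23 and 5 for the first, second and last pair, against 13, 15 and 11.

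With each cell weighted equally, CD14+ monocytes had 1.42, 0.888, 0.826 and 1.04 for the 4 pairs, MS4A7+ monocytes 1.67 for Post-IS over Pre-IS and 0.600 for 8 wpt over 4 wpt, T cells 0.979 for 4 wpt over Post-IS and 0.711 for 8 wpt over 4 wpt, and COX3 took 75.2% in T cells at 4 wpt. With the monocyte labels pooled, the 4 pairs gave 1.60, 0.905, 0.722 and 1.05, and COX3 for 8 wpt over Pre-IS became 1.07. Without cells over 5% mitochondrial UMIs, 8 wpt over 4 wpt was 0.895 in CD14+ and 0.700 in MS4A7+ monocytes, and in MS4A7+ monocytes Post-IS over Pre-IS was 1.32, with COX3 at 0.997, and 4 wpt over Post-IS was 0.946.

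TMM scaling gave 0.901 in CD14+ and 0.954 in MS4A7+ monocytes for 4 wpt over Post-IS, and 0.968 in MS4A7+ monocytes for 8 wpt over Pre-IS. Median-of-ratios scaling gave 0.724 for 8 wpt over 4 wpt and 0.964 for 8 wpt over Pre-IS in MS4A7+ monocytes, and 1.19 for 8 wpt over Pre-IS in T cells. Both raised the median log2 ratio of all genes by 0.15 in MS4A7+ monocytes for 8 wpt over Pre-IS. Both gave 0 nuclear subunits past the fold for 8 wpt over Pre-IS in T cells, and median-of-ratios 17 in MS4A7+ monocytes. The total without mitochondrial and ribosomal protein genes gave a ratio of 0.890 in CD14+ monocytes for 4 wpt over Post-IS, and leaving out the top 5% of cells by UMIs gave 0.621 in MS4A7+ monocytes for 8 wpt over 4 wpt. With the same label mix the Post-IS library had 1.06%. In MS4A7+ monocytes a minimum of 50 UMIs gave 5, 9 and 4 nuclear subunits for Post-IS over Pre-IS, 4 wpt over Post-IS and 8 wpt over Pre-IS, and no minimum gave 17 for the last. The COX1 to ND2 ratio moved in 5 of 60 alternative values. The Post-IS library, with 115 T cells, limits the counts of ND3, ND5, CYTB and ATP6.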

Other observations

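ND6, the mitochondrial gene read from the other strand in mammals, had 3 UMIs in all 4 libraries together.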
